A study of Mus musculus with 14 samples.

Results

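The genes described here encode the proteins of the cytosolic ribosome, measured in RNA labelled as mouse lymph node with and without Atm, before and after ionizing radiation. A gene was included when a probe set of the array carried its symbol alone and that symbol began with Rpl or Rps. S6 kinase genes (Rps6k), pseudogene symbols and the mitochondrial ribosomal proteins were left out. This gave 49 probe sets of 35 genes, out of 12422 probe sets in all other than control probe sets. They stood for 14 proteins of the large subunit, 16 of the small subunit, the stalk protein Rplp0, the 3 paralogs Rpl39l, Rps4l and Rps27l, and Rpl7l1, a ribosome biogenesis factor named for its likeness to Rpl7. Under the same rule the RefSeq gene table listed 89 protein-coding symbols. A further 39 probe sets carried a ribosomal protein symbol together with other symbols and were not used. Rpl5, Rpl11, Rpl23, Rplp1, Rplp2 and Rps19bp1 had no probe set that met the rule, so they have no value here.

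Total RNA was hybridised to 14 arrays with 1 colour each. Wild-type nodes, labelled Atm+/+ and called WT below, were measured on 3 untreated arrays, on 2 arrays taken 30 min after irradiation and on 2 arrays taken 120 min after it. Nodes labelled Atm-/-, called KO below, were measured on 3, 2 and 2 arrays in the same way. Atm is the kinase that signals DNA double-strand breaks, and the study asked how its loss alters the response to radiation. Strain, age, radiation dose, kind of Atm allele and position of the nodes were not given in the sources used here. Nothing in the labels says that replicate letters A, B and C stand for separate animals, so p-values measure only the spread between these arrays, which may be technical.

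The deposited value of a probe set is a linear intensity in arbitrary units, whose precision is limited by how few arrays there are. The Atm probe set read between 5.5 and 55.9 on the WT arrays and between 7.5 and 44 on the KO arrays. Those ranges overlap near background, so this probe set does not check the genotype labels. Of the defining markers of lymphoid cells, 13 of 16 for B cells and 15 of 18 for T cells were measured, and none was listed at 0 on any array. Cd79a of the B cell receptor read between 233 and 921 and Thy1 of T cells between 154 and 286, the highest of their lists. Others read down to background, such as Cd22 (5.7 to 103) and Cd8b1 (4.3 to 83.6). All 13 measured B cell markers and 13 of the 15 for T cells passed the filter for testing. Cd3g (7.6 to 52.4) and Cd8a (6.4 to 43.3) failed it. Markers of salivary gland were far brighter than these, with Klk1, a glandular kallikrein, between 7872 and 13955. Of the 10 measured, all but Smr2 (40.8 to 159) read at least 4217 on every array. Prol1 reached 15198, the highest value of the series. The arrays thus hold much RNA of salivary gland genes, and the part of gland cells in the ribosomal protein values was not tested. In RNA from whole tissue, fewer cells of a type and less RNA per cell cannot be told apart. The 3 arrays with the lowest correlations with the others were KO 30 min A, WT untreated A and KO 120 min A, and without them no member was called either.

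A cytosolic ribosome joins a small subunit, which reads the messenger RNA, to a large subunit, which forms the peptide bond. Each subunit holds ribosomal RNA and one copy of most of its proteins, so cells make the proteins in balanced amounts. Ribosomal protein messenger RNAs are among the most abundant and most stable in growing cells. Their control is known to lie largely in translation: a run of pyrimidines at the very start of the messenger lets mTORC1 and the La-related protein Larp1 switch their translation on and off. When ribosome assembly fails, several free ribosomal proteins, Rpl5 and Rpl11 above all, bind Mdm2 and stabilise p53. Through p53, ribosomal proteins touch the same pathway that Atm activates after radiation.

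Promoter windows were searched for the start-site pyrimidine run of that translational control and, separately, for the core motif bound by ETS transcription factors. The windows printed below are those in which the run was found exactly at the annotated start, a minority of the members. A run offset from that start was not counted. In Rpl7a, for example, pyrimidines span the annotated start, but the base there is T. The count thus does not say how many members lack such a run. RefSeq promoter windows (mouse assembly GRCm38.p6, from 250 bases before the annotated start to 50 after it) were matched by symbol for 28 of the 35 genes, with 37 windows. A run beginning with C at the annotated start and continuing with at least 4 pyrimidines stood in 5 of the 37 windows (13.5%), against 2.51% of all 32851 windows. The motif CGGAAG or its reverse complement CTTCCG, the ETS core, stood within 250 bases before the start in 15 of the 37 windows (40.5%), against 13.6% of all windows, counting both strands. These matches describe the letters only. Each of the 5 windows with a run is printed over 75 bases, from 60 before the start, with the pyrimidine run and any CGGAAG or CTTCCG in capitals. The run begins at the first base of the transcript as annotated for that window. Rpl35a has other annotated starts, and their windows lack the run. They are Rpl35a at chr16:33056422-33056496 (+), Rpl38 at chr11:114668520-114668594 (+), Rps10 at chr17:27635230-27635304 (-), Rps18 at chr17:33955651-33955725 (-) and Rps27 at chr3:90213634-90213708 (-).
Rpl35a: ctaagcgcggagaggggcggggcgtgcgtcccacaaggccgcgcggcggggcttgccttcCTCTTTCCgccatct
Rpl38: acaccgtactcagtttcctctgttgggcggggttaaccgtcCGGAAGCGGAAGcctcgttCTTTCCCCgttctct
Rps10: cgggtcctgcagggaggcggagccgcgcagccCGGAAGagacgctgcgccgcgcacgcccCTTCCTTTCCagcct
Rps18: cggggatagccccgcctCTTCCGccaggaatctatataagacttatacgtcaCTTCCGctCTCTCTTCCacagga
Rps27: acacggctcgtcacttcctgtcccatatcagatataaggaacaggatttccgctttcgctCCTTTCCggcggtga

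In the printed windows the run was 8 bases long in Rpl35a and Rpl38, 10 in Rps10, 9 in Rps18 and 7 in Rps27. Rpl38 carried 2 adjoining CGGAAG cores 19 and 13 bases before the start, and Rps18 carried 2 CTTCCG cores, 43 and 8 bases before it. The window of Rps10 held 1 core, 28 bases before the start. Rps27 had a core farther upstream than the printed stretch, and Rpl35a had none in its window. Of the other members, Rps7, Rps3a1, Rpl19, Rpl37a, Rpl41 and Rps15 had a core within the printed distance of their start. Of the 5 genes with a run, Rps10 and Rps18 had bright probe sets in these data and Rpl35a, Rpl38 and Rps27 had dim ones.

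The member probe sets fell into 2 separate ranges of brightness. In 21 probe sets of 19 genes the mean over the 14 arrays was at least 819, and in the other 28 it was at most 234. A boundary of 500, chosen after the values were seen, separates them, and they are called bright and dim below. All 21 bright probe sets stood in the top 5% of the array by mean intensity, and their single values ran from 533 to 8608. Brightness depends on probe sequence as much as on RNA amount, so it is not read as an order of RNA amounts between genes. Just inside the boundary stood a probe set of Rpl10a (161327_f_at, mean 819) and that of Rpsa (mean 970), and just outside it Rps27 (mean 234) and Rpl13a (mean 198).

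**Figure D1:**
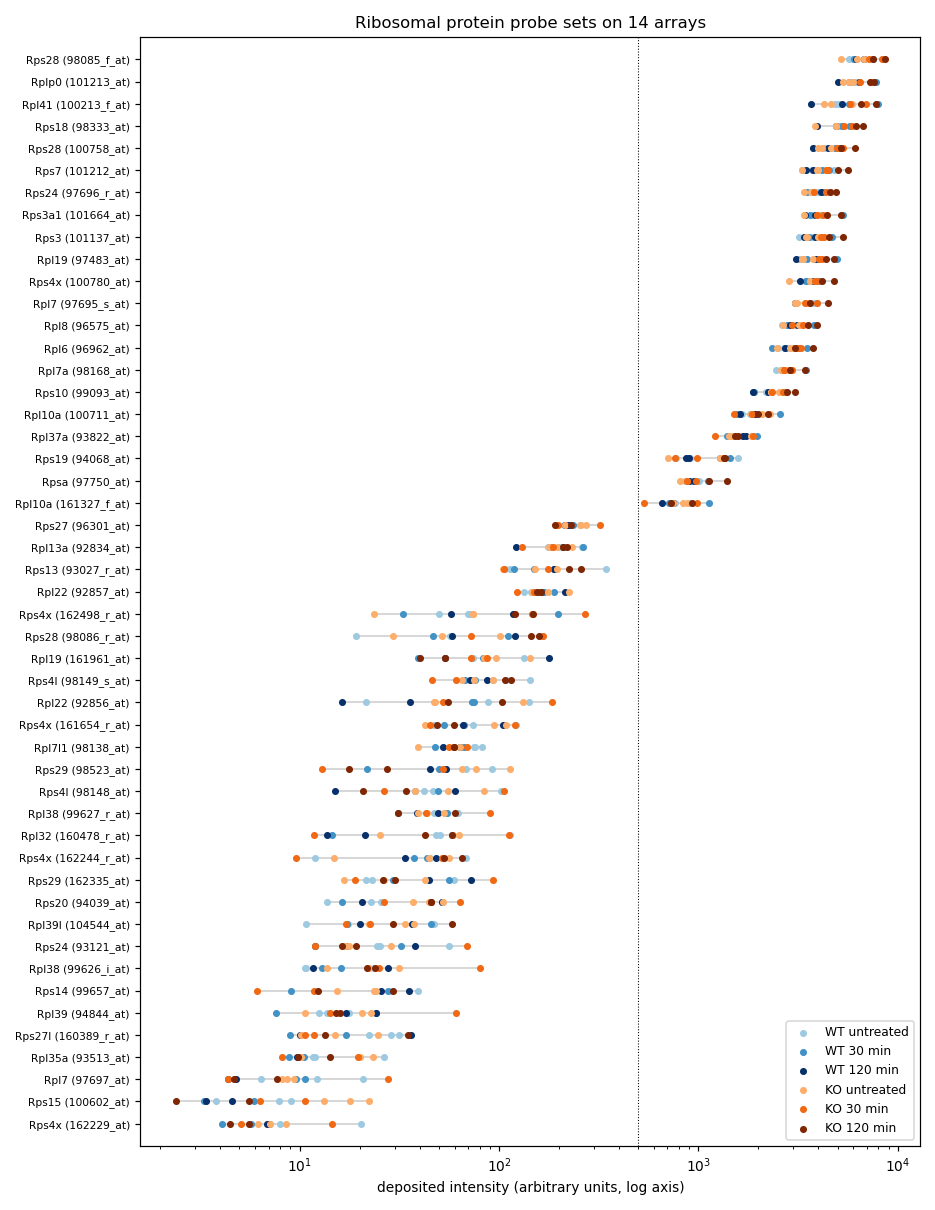
Each row is 1 of the 49 ribosomal protein probe sets and each point is its deposited intensity on 1 of the 14 arrays (arbitrary units, log axis), coloured by group, with the grey line spanning its lowest to highest value and the dotted line at 500. The highest over the lowest of the 14 values lies between 1.41 and 2.25 for the 21 probe sets right of the line, and between 1.69 and 11.4 for the dim ones, so the steadiest dim probe sets spread no more than the most variable bright ones.

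Rplp0, the base of the stalk that recruits elongation factors and a common reference gene, was among the brightest and steadiest. Its intensity was 5750, 6117 and 5803 on the untreated WT arrays, 5677 and 7802 at 30 min, then 6420 and 5011 at 120 min. On the KO arrays it was 5305, 5943 and 5709 untreated, 7338 and 6462 at 30 min, then 7224 and 7581 at 120 min. The highest value, 7802, and the lowest, 5011, were both on irradiated WT arrays, and the WT groups overlapped. Both irradiated KO groups lay above all 3 untreated KO arrays on this scale. After quantile normalization that separation was gone and the fitted log2 change was -0.10 ± 0.15 (SE) at 30 min and -0.05 ± 0.15 at 120 min in KO.

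Among small-subunit proteins, the probe set 98085_f_at of Rps28, a small protein near the messenger exit, had the smallest spread of all tested members, with a pooled SD within groups of 0.06 on the log2 scale. It read 5729, 6809 and 5955 in untreated WT, 6062 and 7478 at 30 min, and 6746 and 6207 at 120 min. In KO it read 5200, 6256 and 6787 untreated, 8325 and 7201 at 30 min, then 7507 and 8608 at 120 min. The deposited KO values were higher on all 4 irradiated arrays than on the untreated ones. The fitted changes after normalization were 0.00 ± 0.14 at 30 min and 0.00 ± 0.14 at 120 min. Its name ends in _f_at, a suffix for probes shared by a gene family, so near-identical copies may contribute. Small spreads were also found for Rpl7a (SD 0.07), the Rps4x probe set 100780_at (SD 0.09), Rps18 (SD 0.09) and Rplp0 (SD 0.09).

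Rps18, a protein of the small-subunit head whose promoter is printed above, had its lowest value on an untreated KO array. Its intensity was 5086, 5689 and 4898 in untreated WT, 5270 and 5771 at 30 min, and 4915 and 3943 at 120 min. In KO it was 3865, 4883 and 4924 untreated, 5928 and 5403 at 30 min, and 6169 and 6730 at 120 min. At 120 min on the deposited scale, 1 of the 2 WT arrays was below all untreated WT arrays, and both KO arrays were above all untreated KO arrays. The fitted log2 change was -0.29 ± 0.15 in WT (limma, adjusted p = 0.639) and 0.13 ± 0.15 in KO (adjusted p = 0.892).

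Rpsa, the small-subunit protein also known as the laminin receptor, had the largest fitted change among the bright members, at 120 min in KO. The untreated KO arrays read 809, 879 and 868, and the 120 min arrays 1129 and 1391. The 2 irradiated KO arrays at 30 min read 876 and 979. In WT the values were 916, 1006 and 853 untreated, 893 and 1122 at 30 min, and 956 and 898 at 120 min. Only the KO arrays at 120 min lay above all others, with a log2 change of 0.51 ± 0.16, a 1.42-fold difference (95% interval of the log2 change 0.15 to 0.87). Its unadjusted p was 0.00864 and its adjusted p 0.606, so it did not pass the threshold. Neither did the KO response minus the WT response, 0.56 ± 0.23 (adjusted p = 0.654).

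Of the listed Mdm2 binders (Rpl5, Rpl11, Rpl23, Rps7 and Rps27l), Rps7 alone had a bright probe set. It read 3314, 4789 and 3714 in untreated WT, 4150 and 4542 at 30 min, and 3744 and 3459 at 120 min. In KO it read 3295, 3946 and 3982 untreated, 4359 and 4475 at 30 min, then 5045 and 5612 at 120 min. The KO groups did not overlap as deposited, but the fitted log2 change at 120 min was 0.21 ± 0.16 (adjusted p = 0.813). In WT both irradiated groups overlapped the untreated one but not each other, the 120 min arrays being lower than those at 30 min, with a fitted change of -0.12 ± 0.16 at 120 min (adjusted p = 0.893).

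Rps19, the protein most often mutated in Diamond-Blackfan anaemia, was the most variable bright member, with a pooled SD within groups of 0.37. Untreated WT arrays alone spanned 769, 904 and 1591, and untreated KO arrays 1290, 1316 and 708. The irradiated WT arrays read 1285 and 1443 at 30 min and 869 and 899 at 120 min, and the irradiated KO arrays 768 and 989, then 1351 and 1369. Every irradiated value lay within the range of untreated arrays taken over both genotypes. Its fitted log2 changes were 0.31 ± 0.30 at 30 min and -0.28 ± 0.30 at 120 min in WT, and -0.28 ± 0.30 and 0.28 ± 0.30 in KO.

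Bright large-subunit members were Rpl6, Rpl7, Rpl7a, Rpl8, Rpl10a, Rpl19, Rpl37a and Rpl41. Rpl7a, a core large-subunit protein, read 2445, 2775 and 2595 in untreated WT, 2768 and 3452 at 30 min, and 2866 and 2622 at 120 min. In KO it read 2601, 2795 and 2955 untreated, 2688 and 2939 at 30 min, and 2878 and 3425 at 120 min. Except for 1 array of WT at 30 min and 1 of KO at 120 min, all its values lay between 2445 and 2955. The fitted changes lay between -0.06 ± 0.14 (KO, 30 min) and 0.15 ± 0.14 (WT, 30 min).

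Rpl41, the shortest ribosomal protein, varied more between arrays of one group, and its probe set again has the family suffix. It read 4823, 5128 and 4998 in untreated WT, 5731 and 8007 at 30 min, and 5255 and 3696 at 120 min. In KO it read 4273, 5914 and 4635 untreated, 6910 and 5743 at 30 min, and 6537 and 7754 at 120 min. WT at 30 min and KO at 120 min lay above their untreated arrays, and WT at 120 min straddled them. The fitted log2 change was 0.24 ± 0.18 in WT at 30 min (adjusted p = 0.98) and 0.16 ± 0.18 in KO at 120 min (adjusted p = 0.89).

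In 16 genes every probe set of the rule was dim: Rpl13a, Rpl22, Rpl32, Rpl35a, Rpl38, Rpl39, Rps13, Rps14, Rps15, Rps20, Rps27, Rps29, the 3 paralogs and Rpl7l1. Of the 28 dim probe sets, 8 had the suffix _r_at, given where some probe selection rules were dropped, against 1 of the 21 bright ones. A probe set was tested when it exceeded the 40th percentile of its array on at least 2 arrays, a level between 38.3 and 55.3 units. That filter kept all 21 bright and 20 of the 28 dim probe sets, 41 in all from 30 genes. Those left out were the probe sets of Rps15, Rps27l, Rpl35a, Rpl39 and Rps14, and 1 each of Rps4x, Rpl7 and Rpl38. Rps15, for example, read between 2.4 and 22.3 on the 14 arrays with a median of 6.1, below the filter level on every array.

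In all, 10 genes had more than 1 probe set, and in 5 of them some were bright and the others dim. Rps4x had 5, of which 1 had a mean of 3743 and 4 had means between 7.92 and 104, the lowest being below the filter level on every array. Rpl7 had 1 at 3587 and 1 at 10, Rps24 had 4116 and 27.6, Rpl19 had 3826 and 87.5, and Rps28 had 6776, 4676 and 92.9. In Rpl10a both probe sets were bright, and in Rpl22, Rpl38, Rps4l and Rps29 both were dim. Fitted changes differed with the probe set too: Rps28 gave 0.00 ± 0.14 and 0.01 ± 0.15 on its bright probe sets in KO at 120 min and 1.09 ± 0.52 on its dim one.

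None of the 41 tested members was called in any of the 9 comparisons, by limma with Benjamini-Hochberg adjustment over all 8938 tested probe sets at 0.05. The same rule called 0.101% of all tested probe sets in WT at 30 min, 0.515% in WT at 120 min, 0% in KO at 30 min, 0% in KO at 120 min and 0% between untreated KO and untreated WT. It called 0.168% between KO and WT averaged over the 3 conditions, 0.0783% for the KO response minus the WT response at 30 min, 0.134% for the same at 120 min, and 0.28% for any difference among the 6 groups. At those rates fewer than 1 call would fall among 41 probe sets, so a count of 0 is not a result about these genes. Unadjusted p-values under 0.05 were found for 1, 1, 2, 5, 3, 0, 1 and 2 members in the first 8 comparisons in the order given, and for 2 in the ninth. The 5 members in KO at 120 min were 12.2% of 41, beside 7.22% of all tested probe sets.

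What the fit does bound is the size of change in the bright genes, on the quantile-normalized scale. There the 95% intervals of all 21 lay within 1 log2 unit of 0, a 2-fold change either way, in each of the 4 responses to radiation and both genotype comparisons. The median standard error of a response was 0.16 for bright members, 0.31 for dim members and 0.23 for all tested probe sets. For the differences between responses 19 of 21 bright intervals at 30 min and 18 of 21 at 120 min lay within that bound. Without quantile normalization the median change of the bright members in KO at 120 min was larger (0.35 against 0.09), and fewer intervals lay within the bound: 20 of 21 in WT at 30 min, 19 in KO at 120 min, and 18 and 12 for the differences between responses at 30 and 120 min. All 21 still did in WT at 120 min, in KO at 30 min and in both genotype comparisons. Among the 20 tested dim members between 11 and 14 intervals lay within it for the 4 responses, so for the dim genes a 2-fold change often could not be told from none on the normalized scale.

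**Figure D2:**
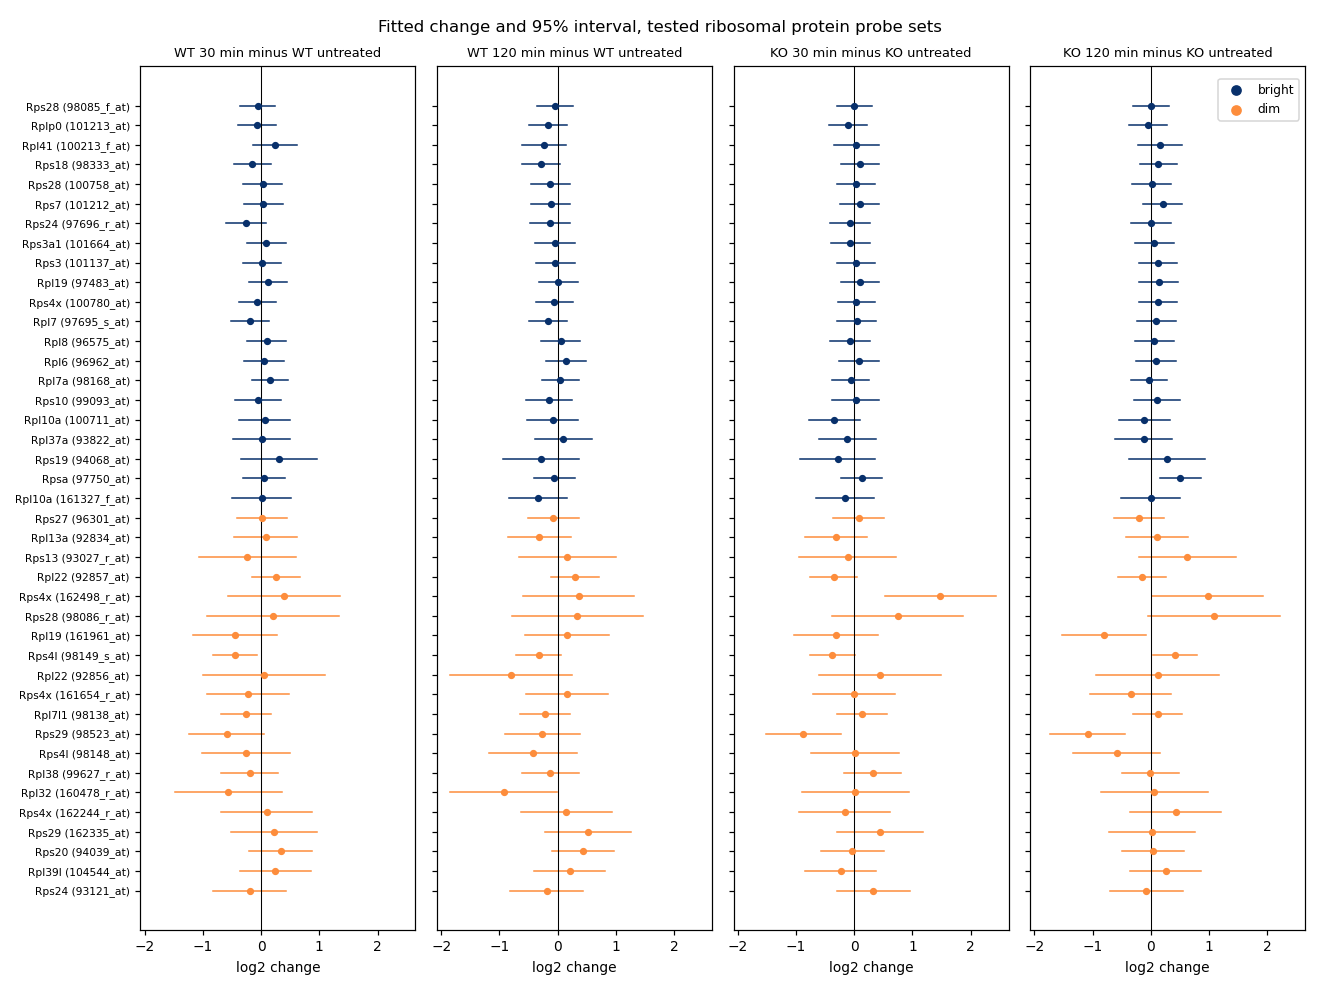
Points are fitted log2 changes after irradiation, from quantile-normalized values, and lines their 95% intervals for the 41 tested ribosomal protein probe sets, bright in blue and dim in orange, ordered by mean intensity, with 1 panel per genotype and time. All 21 bright intervals lie within 1 log2 unit of 0, whereas intervals of dim probe sets reach past 2 units in KO.

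At 30 min in WT the median log2 change of the 41 members was 0.02, beside 0.00 over all tested probe sets, and 24 of them were above 0. Its sign was not stable: it was -0.095 without the WT array B at 30 min, and -0.029 and -0.01 without the untreated WT arrays A and C. The 3 largest increases were the Rps4x probe set 162498_r_at (0.39 ± 0.44), Rps20 (0.34 ± 0.25) and Rps19 (0.31 ± 0.30). The 3 largest decreases were Rps29, probe set 98523_at (-0.59 ± 0.30), Rpl32 (-0.56 ± 0.42) and Rps4l, probe set 98149_s_at (-0.45 ± 0.18). The smallest adjusted p was 0.951, for that Rps4l probe set. Bright members had a median of 0.03 and lay between -0.26 and 0.31.

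At 120 min in WT the median was -0.07 over the 41 members and -0.09 over the 21 bright ones, of which 16 were below 0. The lowest bright value was -0.34 and the highest 0.15. Rpl32 (-0.93 ± 0.42), Rpl22 on probe set 92856_at (-0.80 ± 0.49) and Rps4l on 98148_at (-0.42 ± 0.35) were lowest. Rps29 on 162335_at (0.52 ± 0.34), Rps20 (0.43 ± 0.25) and the Rps4x probe set 162498_r_at (0.36 ± 0.44) were highest. Rpl32, a large-subunit protein, read 48.6, 113 and 50.6 in untreated WT and 21.4 and 13.8 at 120 min, so the groups did not overlap. At 30 min it read 58.3 and 14.6, and in KO its values ran from 11.8 to 112. It had the smallest adjusted p of the members in that comparison, 0.575. When array medians were set equal in place of quantile normalization the median of the 41 was 0.03, so its sign depends on the scaling.

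Quantile-normalized values of 6 of the 21 bright members were lower on both WT arrays at 120 min than on all untreated WT arrays, and 1 was higher, where 13.6% of all tested probe sets were lower and 13.3% higher in that sense. Among the 397 other probe sets with a mean over 1000, 16.6% were lower and 19.4% higher. As deposited 1 of the 21 bright members was lower and 1 higher, beside 15.2% and 12.1% of all tested probe sets. Of the 397 others 10.6% were then lower and 19.1% higher. Lymphocyte markers were also lower on these arrays: all 13 tested B cell markers were below 0 with a median log2 change of -0.62, and their summed intensity was 1412 to 1502 against 2322 to 2986 untreated. Cd22, an inhibitory B cell receptor, fell (-1.62 ± 0.23, adjusted p = 0.0053). T cell markers had a median of -0.39 with 12 of 13 below 0, and a sum of 873 to 899 against 1247 to 1371. Cd14, a co-receptor for endotoxin on macrophages, rose (2.10 ± 0.24, adjusted p = 0.000869), with a median of 0.05 over its list of 15. Skeletal muscle markers had a median of 0.51 with 18 of 20 above 0, and a sum of 4460 to 4591 against 1699 to 3807. Stroma and salivary gland markers had medians of -0.06 and 0.01. Most salivary markers stand at the top of every array, where quantile normalization evens out the values. Their normalized median is thus largely set by the scaling and says little about salivary content. Their deposited sum was 69040 to 80610 at 120 min and 68630 to 74960 untreated. The ratio of the 3' to the 5' Gapdh control probe set, a sign of RNA quality, was 0.891 and 0.723 at 120 min and 0.958, 0.902 and 1.007 untreated. The part of these cell types and of RNA quality in the ribosomal protein values was not tested.

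At 30 min in KO the median was 0.02 over all 41 and also 0.02 over the bright members. Rps4x on 162498_r_at had the largest change of any member in any comparison, 1.48 ± 0.44, with an unadjusted p of 0.00545 and an adjusted p of 0.42, the smallest of the members in that comparison. Its intensity was 74.5, 74.3 and 23.6 on the untreated KO arrays, 270 and 146 at 30 min, then 148 and 120 at 120 min. The WT arrays read 71.8, 50.1 and 69.7, then 197 and 33.2, then 57.7 and 118. All 4 irradiated KO values lay above the untreated ones, but 1 of the WT arrays at 30 min was higher than 3 of those 4. The bright Rps4x probe set gave 0.04 ± 0.15 in the same comparison, with 2856, 3854 and 3637 untreated and 3951 and 3865 at 30 min. After it came Rps28 on 98086_r_at (0.75 ± 0.52) and Rpl22 on 92856_at (0.44 ± 0.49).

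Rps29, a zinc-binding protein of the small-subunit head, had the lowest value at 30 min in KO, -0.87 ± 0.30 on probe set 98523_at (adjusted p = 0.436). The other low members were Rps4l on 98149_s_at (-0.38 ± 0.18) and Rpl22 on 92857_at (-0.35 ± 0.19). The Rps29 probe set read 76.6, 114 and 65.4 on the untreated KO arrays, 12.9 and 52.3 at 30 min, and 17.8 and 27.5 at 120 min. In WT it read 92.4, 68.2 and 54.0, then 21.7 and 50.2, then 44.9 and 54.0. On both irradiated groups of KO it stayed below all untreated KO arrays. The other Rps29 probe set, 162335_at, went the other way at 30 min in KO (0.44 ± 0.34), with 26.5, 16.7 and 42.5 untreated and 93.9 and 18.9 at 30 min. Leaving out the KO array B at 30 min made 98523_at the only member call under any alternative (-1.39), among many calls of other probe sets. That fit left a lone array in the group, which is assumed to vary like the others. The lone array, KO 30 min A, had the lowest median correlation with the other arrays (0.91) and the lowest value of this probe set, 12.9. Leaving out any 1 of the other 13 arrays gave no member call.

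At 120 min in KO 28 of 41 members and 16 of 21 bright members were above 0, with medians of 0.06 and 0.09. Without quantile normalization the median of the 41 was 0.29. Rps28 on 98086_r_at (1.09 ± 0.52), Rps4x on 162498_r_at (0.98 ± 0.44) and Rps13 (0.63 ± 0.38) were highest. The lowest were Rps29 on 98523_at (-1.08 ± 0.30, adjusted p = 0.535), Rpl19 on the dim probe set 161961_at (-0.81 ± 0.33) and Rps4l on 98148_at (-0.59 ± 0.35). Every one of those 6 came from a dim probe set. The dim Rps28 probe set, the most variable of all tested members (SD 0.69), read 101, 29.5 and 51.7 untreated and 144 and 158 at 120 min. In WT its untreated values alone ran from 19.3 to 164, a wider range than that of these 5 KO values.

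Without radiation, KO and WT ribosomal protein values were close. The median log2 difference, KO minus WT, was -0.03 over 41 members and 0.02 over the bright ones, whose values lay between -0.22 and 0.19. Rps20 (0.54 ± 0.22), Rpl22 on 92857_at (0.26 ± 0.17) and Rpl39l (0.19 ± 0.25) were higher in KO. Lower were Rps4l on 98149_s_at (-0.42 ± 0.16), Rpl7l1 (-0.38 ± 0.18) and Rps24 on 93121_at (-0.34 ± 0.26). Rps20, a protein of the small-subunit head, read 25.5, 22.9 and 13.8 in WT and 37.1, 44.4 and 52.4 in KO, without overlap but below the filter level on most arrays. The smallest adjusted p was 0.858. Averaged over the 3 conditions the median was 0.04, with Rps4x on 162498_r_at (0.40 ± 0.26), Rpl22 on 92856_at (0.38 ± 0.29) and Rps28 on 98086_r_at (0.31 ± 0.31) highest and Rps29 (-0.24 ± 0.20 and -0.21 ± 0.18) and Rpl19 on 161961_at (-0.16 ± 0.20) lowest.

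The difference between the 2 genotypes' responses was small beside its error in most members. At 30 min its median was 0.06 over the 41 members (-0.046 without the WT array A at 30 min, -0.038 without the untreated WT array B and -0.003 without the KO array A at 30 min), with Rps4x on 162498_r_at (1.09 ± 0.62), Rpl32 (0.59 ± 0.60) and Rps28 on 98086_r_at (0.55 ± 0.74) highest. Rpl22 on 92857_at (-0.61 ± 0.27), Rps19 (-0.59 ± 0.42) and Rpl39l (-0.47 ± 0.40) were lowest. At 120 min its median was 0.13 (0.39 without quantile normalization and 0.21 without the KO array A at 120 min), and 17 of 21 bright members were above 0. Rpl32 (0.99 ± 0.60), Rpl22 on 92856_at (0.92 ± 0.69) and Rps28 on 98086_r_at (0.75 ± 0.74) were highest, and Rpl19 on 161961_at (-0.97 ± 0.47), Rps29 on 98523_at (-0.82 ± 0.42) and Rps4x on 161654_r_at (-0.50 ± 0.46) lowest. The smallest adjusted p was 0.512, for Rps4l on 98149_s_at (0.74 ± 0.25).

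The paralogs were all dim. Rpl39l, a copy of Rpl39 known mainly from testis, read between 10.8 and 58.4 and passed the filter level on 3 arrays. Rps27l, a target of p53 and a binder of Mdm2, read 22.2, 31.5 and 28.9 in untreated WT, 17.1 and 9 at 30 min, then 10 and 36.2 at 120 min. In KO it read 15, 10.2 and 24.7 untreated, 11.8 and 10.6 at 30 min, and 13.4 and 35 at 120 min. Both WT arrays at 30 min lay below the untreated ones, while each of the other irradiated groups overlapped the untreated arrays of its genotype. The probe set was below the filter level on every array, so it was not tested. Rps4l, an autosomal copy of Rps4x, read on 98149_s_at 142, 93.4 and 108 in untreated WT against 75.7 and 67.4 at 30 min and 71.4 and 87.5 at 120 min, all 4 irradiated values being lower. In KO it read 65.6, 93.5 and 75 untreated, 61 and 46 at 30 min, and 115 and 108 at 120 min, low at 30 min and high at 120 min. This probe set had the smallest p of all members for any difference among the 6 groups (0.00661, adjusted p = 0.372), and the other Rps4l probe set had the opposite sign in KO at 120 min.

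How many bright genes were higher in KO at 120 min depended on the scaling between arrays. As deposited, 16 of 21 bright members were higher on both KO arrays at 120 min than on all 3 untreated KO arrays, where 13.2% of all tested probe sets and 28% of the 397 other probe sets with a mean over 1000 were. After quantile normalization 5 of 21 were higher, where 13% of all tested probe sets were, and none was lower, where 13.7% were. Of the 397 others 9.57% were higher and 15.9% lower on that scale. The median log2 change of the bright members was 0.35 as deposited and 0.09 after normalization, and that of the other probe sets over 1000 was 0.09 and -0.03. No member was called on either scale. Quantile normalization gives every array the same distribution, so a shift shared by the brightest probe sets is removed by it in part.

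The same count was made on single arrays. As deposited, 16 of 21 bright members on array A and 19 of 21 on array B of KO at 120 min exceeded all 3 untreated KO arrays, where 27.5% and 26.7% of all tested probe sets did. At 30 min in KO 12 did on array A (34.5%) and 14 on array B (24.7%). On both arrays 9 of 21 were higher, beside 10.8% of all tested probe sets and 24.2% of the 397 others over 1000. In WT 1 of 21 was higher on both arrays at 30 min (9.06%) and, as given above, 1 at 120 min. The WT array B at 30 min was high by itself, with 16 of 21 above all untreated WT arrays (24.3%), while array A of that group had 1 (22.9%). The 2 arrays of that group thus stood apart from each other. After quantile normalization the counts on single arrays were 5 of 21 on KO 120 min A (27.2%), 13 on KO 120 min B (26.8%) and 11 on WT 30 min B (25.1%). On that scale array A of KO at 120 min was thus near the background share. The B arrays of KO at 120 min and WT at 30 min stayed above it. For KO at 30 min the normalized counts were 5 of 21 on array A (31.1%) and 5 on array B (26.4%). On both of those arrays 2 of 21 were higher, beside 11.1% of all tested probe sets.

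**Figure D3:**
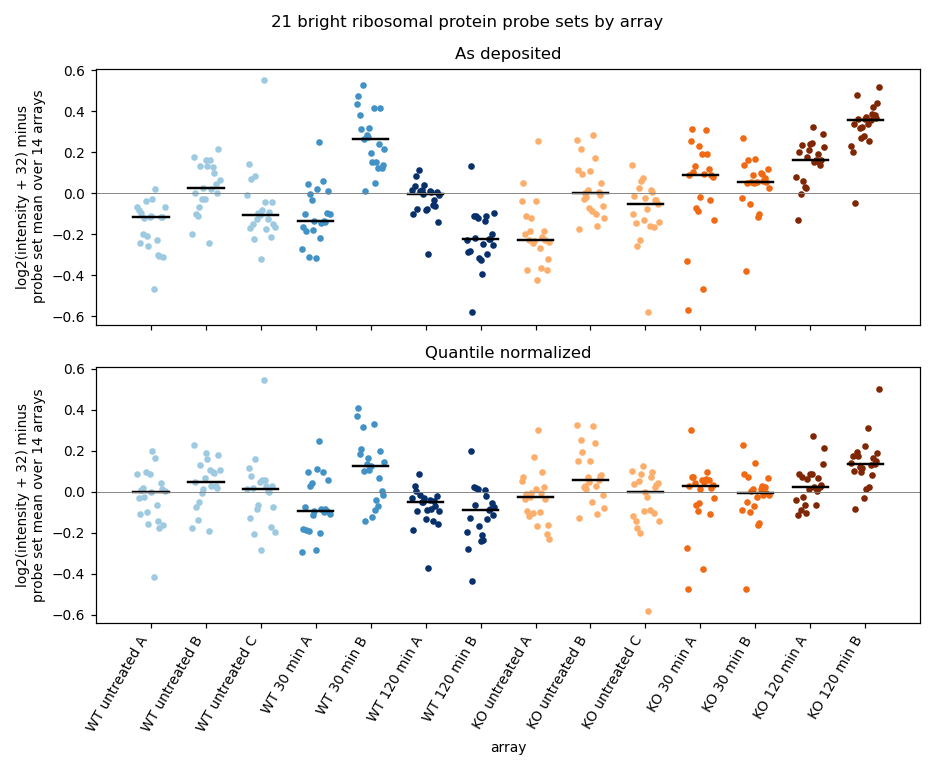
Each point is 1 of the 21 bright probe sets on 1 array, as log2(intensity + 32) minus that probe set's mean over the 14 arrays, with the array's median as a bar, as deposited above and quantile normalized below. As deposited the KO arrays at 120 min and the WT array B at 30 min stand highest, and after normalization the array medians lie closer to 0.

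Summed over the 21 bright probe sets, deposited intensity was 65290, 75346 and 68327 in untreated WT, 68664 and 87280 at 30 min, and 72172 and 61940 at 120 min. In KO the sums were 61796, 73027 and 69636 untreated, 79338 and 76096 at 30 min, then 82406 and 93493 at 120 min. Array B of KO at 120 min was highest and the untreated KO array A lowest, and the 3 KO groups did not overlap between untreated and irradiated arrays. These sums were between 2.39% and 3.36% of the summed intensity of each array. The KO array B at 120 min held the highest value of 12 of the 21 members as deposited and the WT array B at 30 min that of 8. After quantile normalization each held the highest value of 7.

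Other measures moved between the same KO groups. Skeletal muscle markers had a median log2 change of -1.33 in KO at 120 min, with 19 of 20 below 0 and all 23 listed genes measured, none at 0. Their summed intensity was 1314 to 4249 at 120 min and 4349 to 13280 on the untreated KO arrays, which themselves stood above untreated WT (median 1.41, 1699 to 3807). Summed salivary gland markers, 10 of 16 measured, were 90260 to 94230 against 57460 to 76610, with a median normalized change of 0.01. Macrophage and neutrophil markers had a median of 0.34 with 12 of 15 above 0, and stroma and endothelium markers -0.08. The ratio of the 3' to the 5' Gapdh control probe set was 0.857 and 0.777 at 120 min and 0.896, 0.867 and 0.976 untreated. B and T cell markers had medians of 0.05 and 0.20. The part of these differences in the ribosomal protein values was not tested.

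Within groups the bright members varied together as deposited. The median Pearson correlation of their deviations from the group means was 0.65 over 210 pairs, beside 0.15 for pairs of the 397 other probe sets over 1000. After quantile normalization these were 0.24 and 0.01. The 20 tested dim members had 0.09 and 0.04, and the 69 tested mitochondrial ribosomal protein probe sets 0.04 and 0.06. These correlations run over 14 arrays that all pairs share, are not independent, and carry the scaling and hybridization of each array with them.

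Genes that make and use ribosomes were read on the same scale, 1 probe set a gene, from lists that were chosen with earlier results known. Among 29 tested elongation and initiation factors, 38 ribosome biogenesis factors, 22 genes of RNA polymerases I and III, 17 mTORC1 and Myc regulators and 61 mitochondrial ribosomal proteins, none passed the test in any of the 9 comparisons. The same test called between 0% and 0.515% of all tested probe sets, depending on the comparison. At such rates few or no calls would fall in these lists, so this absence is not a result about their genes. Of 4 symbols listed for proteins made as fusions or bound to the small subunit, only Fau was measured, at 7.9 to 56.4, and it was not tested.

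At 120 min the median change of the elongation and initiation factors was 0.05 in WT and 0.02 in KO. Eef1a2, the muscle and neuron form of the factor that brings tRNA to the ribosome, had the largest change in WT, 0.55 ± 0.40, and -0.66 ± 0.40 in KO. Eif1a, which helps the small subunit scan for a start codon, had 0.44 ± 0.20 in WT, and Eef1b2, the exchange factor for Eef1a1, had the largest change in KO, -0.69 ± 0.44. Biogenesis factors had medians of 0.03 and 0.12. Bop1, needed for large-subunit RNA processing, had -0.75 ± 0.36 in WT and Tsr1, which acts in small-subunit maturation, 0.48 ± 0.18. In KO, Rrp1 (0.81 ± 0.25) and Noc4l (0.55 ± 0.24), both nucleolar assembly factors, were highest.

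Medians for the RNA polymerase I and III genes were 0.06 and 0.11 at 120 min. Ttf1, which ends transcription of ribosomal RNA genes, had 0.71 ± 0.35 in WT and -0.68 ± 0.35 in KO, and Taf1a, of the polymerase I selectivity factor, had -0.43 ± 0.25 in WT and Polr1e, a polymerase I subunit, 0.60 ± 0.22 in KO. For the mTORC1 and Myc list the medians were 0.01 and 0.17. Rps6kb2, an S6 kinase, had -0.94 ± 0.37 in WT and 0.78 ± 0.37 in KO, Mlst8, a subunit of mTORC1, 0.35 ± 0.17 in WT, and Tsc1, an inhibitor of mTORC1, 0.70 ± 0.26 in KO. The mitochondrial ribosomal protein list, taken only by symbols starting with Mrpl or Mrps, had medians of -0.02 and 0.06. Its largest changes were Mrps36 (-0.58 ± 0.25) and Mrpl50 (0.55 ± 0.33) in WT and Mrpl41 (0.82 ± 0.26) and Mrps33 (-0.79 ± 0.33) in KO. Such a symbol alone does not show that a gene encodes a protein of that ribosome.

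**Figure D4:**
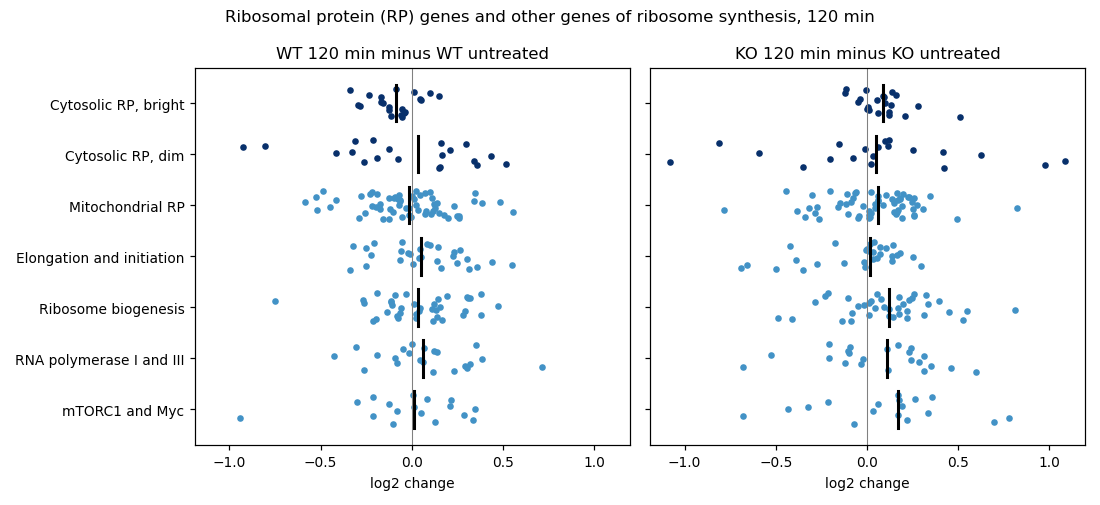
Points are fitted log2 changes at 120 min, 1 per ribosomal protein probe set (dark blue) or per gene of a related list (light blue), with WT on the left, KO on the right and the median of each set as a bar. All medians lie between -0.09 and 0.17, and the bright cytosolic set is narrower than the others.

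The list of p53 partners held calls, as the B cell list and the macrophage list did above. Of 10 tested, 2 rose in WT at 120 min: Cdkn1a, the cyclin-dependent kinase inhibitor p21 (2.60 ± 0.26, adjusted p = 0.00044), and Phlda3, an inhibitor of Akt (1.18 ± 0.23, adjusted p = 0.043). The median of that list was 0.71. In KO none passed the test, and Cdkn1a gave 0.99 ± 0.26 (adjusted p = 0.487) and Mdm2 0.95 ± 0.34 (adjusted p = 0.646), with a median of 0.21. The difference between the Cdkn1a responses at 120 min, -1.61 ± 0.37, did not pass either (adjusted p = 0.218). On the same WT arrays the intervals of all 21 bright ribosomal protein probe sets stayed within 2-fold.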

How the data were processed

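RNA from 14 samples was measured on 1-colour arrays. The deposited values are one linear intensity per probe set and array, with the authors' software not given in the sources used here. Without its highest and lowest 2%, every array averaged 150.1, which shows a common scaling before deposit. Values were taken as log2(value + 32) and quantile normalized, because array medians spanned 0.27 log2 units, over 0.2. A model of 6 group means was fitted with limma 3.58.1 in R 4.3.3 (8 residual degrees of freedom) to 8938 probe sets. Left out were 66 control probe sets and those above the 40th percentile of their array on fewer than 2 arrays. The fit was tested on simulated data. Symbols came from the platform annotation: of 12422 probe sets other than controls, 10833 had 1 gene, 396 several and 1193 none listed. The offset makes changes of dim probe sets too small. Members and lists were chosen with earlier results of these data known. Named with values were members called, the 3 highest and 3 lowest changes per comparison, the largest and smallest spreads, stalk genes, Mdm2 binders, paralogs and genes with several probe sets; Rpsa, Rpl41 and bright examples were added after their values were seen.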

Additional observations from a re-analysis of the deposited data

How the results depend on the processing

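The count of members called stayed 0 in all 9 comparisons under 11 alternatives (10 for any difference among the groups). They covered the scaling, the offset, the filter, the arrays in the fit, array weights, a replicate block, and dropping 3 weakly correlated arrays (KO 30 min A, WT untreated A and KO 120 min A), which was chosen after seeing the data. With 1 array left out in turn the count ranged from 0 to 1 in KO at 30 min and was 0 in the other comparisons. The median member change depended on the scaling; the yardstick is the SD of the members' median between arrays of one group, 0.063. Without quantile normalization it was 0.107 in WT at 30 min, 0.289 in KO at 120 min and 0.389 for the difference of responses at 120 min. With array medians set equal it was 0.146 in WT at 30 min, 0.027 in WT at 120 min (main value -0.074), 0.301 in KO at 120 min and 0.329 for that difference, which was 0.241 without the 3 weakly correlated arrays. With 1 array left out in turn the median ranged from -0.095 (without WT 30 min B) to 0.069 in WT at 30 min. The difference of responses then ranged from -0.046 (without WT 30 min A) to 0.087 at 30 min and from 0.097 to 0.21 (without KO 120 min A) at 120 min. All other medians moved by less than that SD, though those of KO at 30 min (without KO untreated A, KO untreated C or KO 30 min A) and of untreated KO minus WT (without WT untreated B, KO untreated A or KO untreated C) changed sign around 0. Among the 11 alternatives the median also turned negative at 30 min, to -0.028 at lowest in KO and -0.026 in WT (main value 0.019 in each). Same-letter arrays showed no shared variation (31 pairs, correlations from -0.12 to 0.08). This cannot settle whether the letters pair the arrays. Where a group holds only arrays A and B, their deviations mirror each other, so the pairs are not independent. With the replicate block 0 members were called and the KO median at 120 min was 0.05. Signal over background limits the 28 dim probe sets: 8 could not be tested.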
